A study of Mus musculus with 2 samples.

Results

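Lyz1 and Lyz2, the pair of mouse genes for c-type lysozyme, were taken by their symbols as 2 of the 32285 genes counted in single lung cells at postnatal day 10 (P10) and shortly before birth (E18.5, embryonic). Both libraries carry the genotype label Cdh16CreERT2;tdTomatoflox/flox, whereas the design text gives Cdh16CreERT2/wt;R26-tdTomatoflox/wt. In such mice tamoxifen activates a Cre recombinase driven by the Cdh16 promoter, and cells that then express Cre, and their descendants, carry the red protein tdTomato. Tamoxifen was given to pregnant females from E12.5 on, by injection at 0.1 mg/kg or in the diet at 0.4 g/kg, and which route applied to which library is not given. Lung cells stained for CD326, an epithelial surface protein, were sorted for tdTomato, and 1 library was made at each time point, both of batch 1. The number of animals per library is not given, and the P10 library also has an embryonic lung as its tissue label. E16.5 lungs were not analysed here. With 1 library per time point there was no replicate, so no test was made: each interval is a 95% interval for counting error alone, and a difference between P10 and E18.5 is one between 2 libraries.

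Lysozyme cuts the peptidoglycan of bacterial cell walls. In the mouse, Lyz2 encodes the M form known from macrophages, neutrophils and alveolar type 2 (AT2) cells, and Lyz1 encodes the P form known from the Paneth cells of the gut. AT2 cells make surfactant, which they store in lamellar bodies, and Sftpc, the gene of surfactant protein C, is the usual marker for them. In the lung, lysozyme is released into the fluid that lines the alveoli.

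Both genes lie on chromosome 10 of GRCm38, on the minus strand, each with 4 exons. Lyz1 (ENSMUSG00000069515) spans chr10:117287797-117292868 and Lyz2 (ENSMUSG00000069516) spans chr10:117277331-117282321, with 5475 bases between them. Their coding sequences, each of 447 bases with the stop codon, are 95.1% identical and differ at 22 bases. The first 300 coding bases are shown because the counts rest on telling these genes apart. Capitals mark the 20 bases that differ there.
Lyz1 coding start: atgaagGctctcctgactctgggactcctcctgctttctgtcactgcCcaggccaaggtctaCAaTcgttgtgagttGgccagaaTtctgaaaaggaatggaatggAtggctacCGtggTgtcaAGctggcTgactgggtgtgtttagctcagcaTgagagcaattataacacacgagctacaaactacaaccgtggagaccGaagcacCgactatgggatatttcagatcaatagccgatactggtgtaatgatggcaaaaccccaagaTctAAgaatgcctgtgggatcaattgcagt
Lyz2 coding start: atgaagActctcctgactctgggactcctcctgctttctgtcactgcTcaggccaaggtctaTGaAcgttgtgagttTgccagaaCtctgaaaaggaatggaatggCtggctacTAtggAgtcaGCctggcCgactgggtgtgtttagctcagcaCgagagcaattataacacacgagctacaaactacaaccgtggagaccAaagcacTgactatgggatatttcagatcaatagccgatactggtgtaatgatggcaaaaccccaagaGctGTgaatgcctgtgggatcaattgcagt

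A 3′ library reads mainly the end of a transcript, and over the last 500 bases the transcripts were 95.4% identical. Of the 90-base windows in that stretch, 3.65% occur letter for letter in the other gene, and of the 50-base windows 17.7% for Lyz1 and 16.9% for Lyz2. A read from such a window could not be assigned to 1 gene, and the counts of each gene are uncertain to that extent. Upstream the genes differ more: the 250 bases before the RefSeq starts were 79.4% identical. The stretch from 250 to 51 bases before each start (RefSeq, GRCm38.p6, minus strand) is shown because the levels of the genes differed between cells, again with differing bases in capitals. The windows are chr10:117292919-117293118 for Lyz1 and chr10:117282323-117282522 for Lyz2.
Lyz1 promoter: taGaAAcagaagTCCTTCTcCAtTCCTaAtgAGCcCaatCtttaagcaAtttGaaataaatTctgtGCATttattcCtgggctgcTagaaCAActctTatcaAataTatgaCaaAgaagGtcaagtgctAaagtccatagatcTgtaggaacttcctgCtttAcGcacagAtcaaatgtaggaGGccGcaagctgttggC
Lyz2 promoter: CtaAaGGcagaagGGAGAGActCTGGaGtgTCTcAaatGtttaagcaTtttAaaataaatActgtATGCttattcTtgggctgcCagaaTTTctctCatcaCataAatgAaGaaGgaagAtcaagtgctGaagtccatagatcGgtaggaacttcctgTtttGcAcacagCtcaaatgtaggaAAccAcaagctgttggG

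A set of 3 short motifs were searched on both strands of the 250 bases. CAAGTG, an NKX2-1 motif, was found once in each promoter, 129 bases before the start, and is present in 11.6% of the 32851 mouse promoters. TTGCNNAA, a C/EBP motif, was found in the Lyz1 window 209 bases before the start and not in the Lyz2 window, and 9.56% of promoters hold it. GAGGAA, a PU.1 motif, was found in neither, and 23.3% of promoters hold it. These matches are descriptions of letters only.

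Cells with at least 500 genes, at least 1000 UMIs (counted molecules) and at most 20% mitochondrial UMIs were kept, which left 14086 cells at P10 and 12027 at E18.5. Their median depth was 10251 UMIs at P10 and 8959 UMIs at E18.5, and 52 barcodes occurred in both libraries. Lyz1 and Lyz2 together made up 1.72% of all UMIs at P10 and 0.786% at E18.5. Clusters were named from marker genes without the use of Lyz1 or Lyz2. AT2-like clusters, each with at least 8 of 11 AT2 markers raised, held 8482 cells at P10 (60.2%) and 2821 cells at E18.5 (23.5%). That count alone did not define them: an E18.5 cluster of 1656 cells with 11 raised was set apart because AT1 markers were high too. Clusters left unnamed held 377 cells at P10 and 606 at E18.5. Those at E18.5 were a shallow cluster of 203 cells with 10 AT2 markers raised, and a cluster of 403 cells. The latter had 8 AT2 and 4 macrophage or monocyte markers raised. What these cells would change in the named classes was not tested. The label of alveolar epithelial cells did not cover all cells: macrophages, neutrophils, lymphocytes, endothelial cells and mesenchymal cells were found in the libraries. No cluster passed as AT1-like at P10, and 4 did at E18.5. In these clusters Lyz1 and Lyz2 levels are given as CPM, counts scaled to the same total of UMIs, over the summed cells, and in single cells per 10000 UMIs.

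In AT2-like cells Lyz2 was higher at P10 and Lyz1 was lower at P10 than at E18.5. Lyz1 stood at 3087 CPM (3076 to 3097) at P10, against 7818 CPM (7789 to 7847) at E18.5, which is 2.53-fold lower (2.52 to 2.55, log2 ratio -1.34). Lyz2 stood at 17109 CPM at P10, against 7353 CPM at E18.5, a ratio of 2.33 (2.32 to 2.34, log2 ratio 1.22). The sizes of both differences moved with depth. Over 4 equal bins of UMIs per cell, shallowest first, Lyz2 stood at 15090, 16832, 18167 and 17337 CPM at P10. At E18.5 it stood at 7898, 9442, 9546 and 5336 CPM. Lyz1 stood at 2683, 3063, 3339 and 3094 CPM at P10, and at 7167, 9934, 10221 and 5982 CPM at E18.5. The deepest E18.5 bin was thus the lowest for both genes. Sftpc stood at 149904 CPM at P10 and 123889 CPM at E18.5, a ratio of 1.21. Lyz1 gave 15.3% of the lysozyme UMIs of AT2-like cells at P10 and 51.5% at E18.5. By level, Lyz2 was the 3rd gene and Lyz1 the 17th gene of these cells at P10, and at E18.5 Lyz1 was the 4th and Lyz2 the 6th. Against a fold limit of 2, 13.6% of the 8421 genes measured in AT2-like cells were higher at P10 and 10.5% were lower, so the call alone did not set the pair apart. The Lyz2 ratio was 1.88 with a stricter cell filter and 1.91 after the background level was subtracted, both under that limit.

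**Figure D1:**
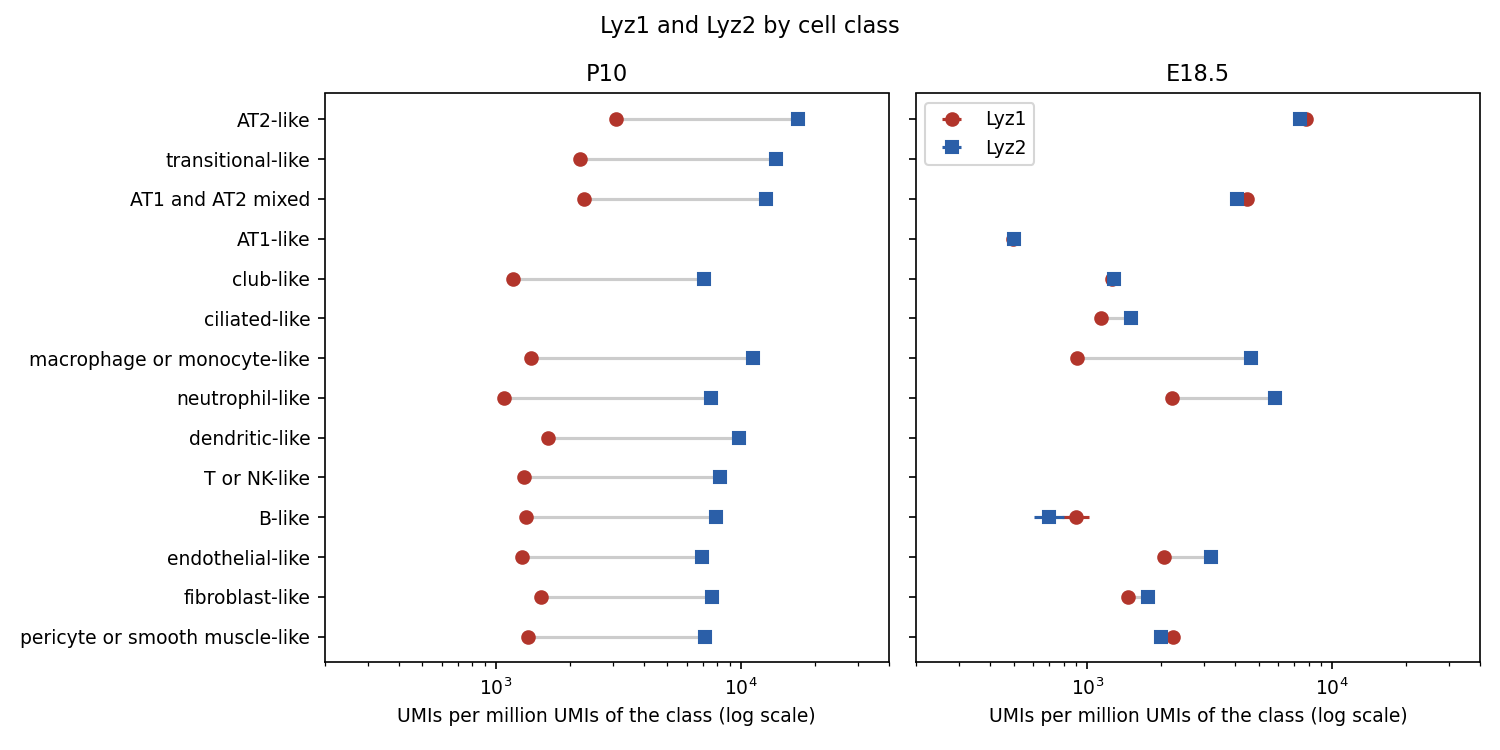
Levels of Lyz1 and Lyz2 (CPM, log axis) in each marker-named class of cells at P10 and E18.5, as sums over cells; grey lines join the genes of a class and bars are 95% counting intervals. AT2-like cells reach 17109 CPM of Lyz2 at P10 and 7353 CPM at E18.5, and every other class lies lower.

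Neither change was an even shift over cells. In single AT2-like cells Lyz1 had separate low and high levels in both libraries, and Lyz2 did so at E18.5. Limits between them were set after the distributions were seen: 20 per 10000 UMIs for Lyz1 in both libraries, and for Lyz2 60 per 10000 UMIs at P10 and 20 at E18.5. A class made in this way is a range of levels and not a type of cell. Cells within 1.5-fold of the Lyz1 limit were 5.52% of AT2-like cells at P10 and 6.42% at E18.5, and of the Lyz2 limit 9.76% at P10 and 8.37% at E18.5.

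Lyz1 was high in 2313 AT2-like cells at P10, or 27.3% (26.3 to 28.2), and in 1528 cells at E18.5, or 54.2% (52.3 to 56.0). The median Lyz1 level of the high cells was 82.3 per 10000 UMIs at P10 and 126 at E18.5. In the low cells it was 5.68 at P10 and 5.67 at E18.5. Beside the 2.53-fold lower Lyz1 sum at P10, the share of high cells was 1.99-fold lower and the median level in them 1.53-fold lower. These factors count each cell equally, use a median and leave out the UMIs of the low cells. The sum weighs cells by depth and includes the low cells, so the factors do not multiply to the ratio of the sums. High cells held 85.8% of the Lyz1 UMIs of AT2-like cells at P10 and 96.5% at E18.5.

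Lyz2 was high in 94.1% of AT2-like cells at P10 and in 61.6% at E18.5. Its median in high cells was 169 per 10000 UMIs at P10 and 106 at E18.5, and in low cells 38.5 at P10 and 6.88 at E18.5. The unequal limits themselves move these values. With 60 per 10000 UMIs in both libraries, a limit added after seeing the data, Lyz2 was high in 94.1% of AT2-like cells at P10 (median 169) and in 46.05% at E18.5 (median 131). With 20 in both, it was high in 99.6% at P10 (median 164) and in 61.6% at E18.5 (median 106).

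**Figure D2:**
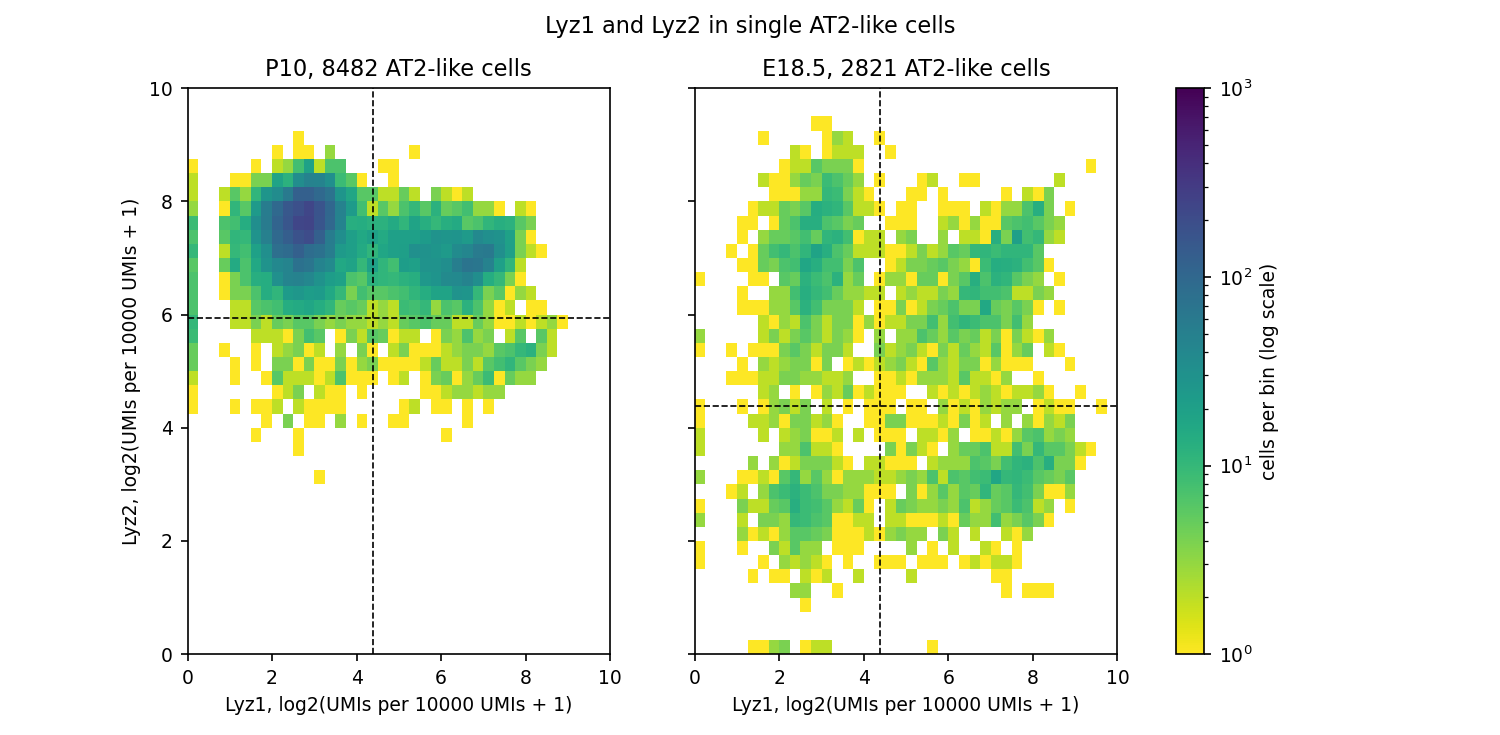
Lyz1 level against Lyz2 level (both per 10000 UMIs, log axes) in the AT2-like cells of the P10 and E18.5 libraries, as the number of cells per bin, with lines at the limits. At P10 most cells lie at high Lyz2 and low Lyz1 (70.2%), and at E18.5 each of the 4 combinations holds between 15.7% and 31.5% of cells.

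All 4 combinations of low and high occurred. At P10, 5954 AT2-like cells (70.2%) had high Lyz2 and low Lyz1, 2024 (23.9%) had both genes high, 289 (3.41%) had high Lyz1 and low Lyz2, and 215 (2.53%) had both low. At E18.5, 889 cells (31.5%) had both genes high, 850 (30.1%) had high Lyz2 alone, 639 (22.7%) had high Lyz1 alone and 443 (15.7%) had both low. The product of the separate shares would give both genes high in 25.6% of cells at P10 and 33.4% at E18.5, slightly above what was counted. At P10 Lyz2 was high in 94.1% of cells, so the count could differ little from the product there. Lyz2 was low in 289 of 2313 Lyz1-high cells and in 215 of 6169 Lyz1-low cells at P10. At E18.5 it was low in 639 of 1528 Lyz1-high cells and in 443 of 1293 Lyz1-low cells. Among the low cells of one gene at E18.5, which the limit keeps low by construction, the level was slightly higher where the other gene was high: the Lyz2 median was 7.75 per 10000 UMIs where Lyz1 was high at a median of 140, and 5.69 where Lyz1 was low. In the same way the Lyz1 median was 6.35 where Lyz2 was high and 4.73 where it was low.

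Within the cells of high Lyz2, its level was lower where Lyz1 was high too. At P10 the Lyz2 median was 129 per 10000 UMIs (middle 50% of cells 104 to 158) with Lyz1 high and 188 (143 to 232) with Lyz1 low. At E18.5 it was 91.8 (54.9 to 140) with Lyz1 high and 121 (67.8 to 200) with Lyz1 low. The sum of both genes differed less at P10, with a median of 214 per 10000 UMIs in cells with both high and 194 in cells with Lyz2 alone. At E18.5 the summed medians were 218 with both genes high, 147 with Lyz1 alone, 128 with Lyz2 alone and 11.04 with neither. Over AT2-like cells thinned to 3000 UMIs, the Spearman correlation of Lyz1 with Lyz2 was -0.31 at P10 (8306 cells) and -0.06 at E18.5 (2770 cells). These cells share 1 library each, and both counts are parts of the same total.

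The share of Lyz1 in a cell's lysozyme UMIs, a ratio within the gene pair, shows the same separation. Among the 8449 P10 AT2-like cells with at least 10 lysozyme UMIs, 73.4% had a Lyz1 share under 16% (median 2.99%), 24.4% lay between 16% and 72% (median 41.1%) and 2.23% lay above (median 83.5%). Among 2609 such cells at E18.5, 31.1% lay in the low range (median 4.55%), 39.3% in the middle (median 51.5%) and 29.6% in the high range (median 94.0%). The class value of 51.5% at E18.5 is thus the average of cells near 0, cells in the middle and cells near 100% of Lyz1. This per-cell share also moved with depth. Over 4 equal bins of UMIs per cell, it was under 10% in 69.5% of the shallowest and 63.2% of the deepest cells at P10. At E18.5 it was under 10% in 31.7% of the shallowest and 15.5% of the deepest.

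**Figure D3:**
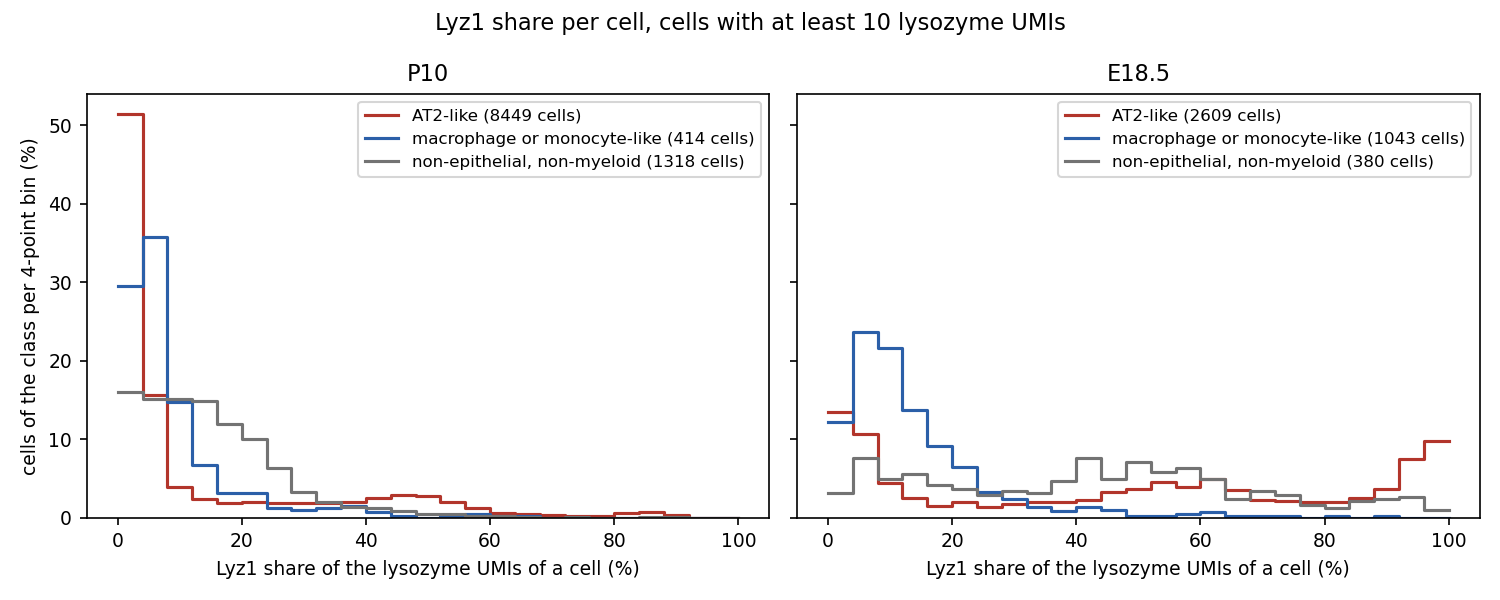
Lyz1 share of the lysozyme UMIs of a cell (percent, 100% being Lyz1 alone) in AT2-like, macrophage or monocyte-like and other non-epithelial cells with at least 10 lysozyme UMIs, at P10 and E18.5. AT2-like cells pile up at low shares at P10 and at low, middle and high shares at E18.5.

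The same separation occurred in each AT2-like cluster and in cells of either sex. Lyz1 was high in 25.3% to 32.0% of cells over the 5 AT2-like clusters at P10 and in 44.3% to 57.8% over the 3 at E18.5. Lyz2 was high in 91.6% to 98.1% at P10 and in 42.3% to 66.0% at E18.5, by the unequal limits of the libraries. Cells with an Xist UMI and no UMI of a Y-linked gene had high Lyz1 in 27.5% at P10 and in 55.7% at E18.5. Cells with a Y-linked UMI and no Xist UMI had high Lyz1 in 24.9% at P10 and in 51.2% at E18.5. The share moved with depth: over 4 equal bins of UMIs per cell, Lyz1 was high in 23.4% of the shallowest and 34.9% of the deepest cells at P10. At E18.5 it was high in 45.2% of the shallowest and 62.6% of the deepest. Leaving out the 5% of cells with the highest doublet score gave 26.9% at P10 and 54.0% at E18.5. Scrublet, which gave the scores, called only 1 cell at P10 and 2 at E18.5 as doublets, so these values cannot show the part of doublets. That part was not tested.

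Apart from Lyz1 itself, no gene differed by 2-fold between cells of high and low Lyz1. Summed over Lyz1-high and Lyz1-low AT2-like cells, 0 of 5774 other genes with at least 20 CPM differed by 2-fold at P10 (0.0%), and 0 of 5551 at E18.5 (0.0%). At 1.5-fold the numbers were 0 at P10 and 2 at E18.5. The outermost at P10 were Saa3, an acute-phase protein (log2 ratio 0.26), and the globin Hba-a1 (log2 ratio -0.41). At E18.5 the outermost were Cblif, the gastric intrinsic factor (log2 ratio 0.58), and Gstm1, a glutathione transferase (log2 ratio -0.66). Sftpc stood at 149872 CPM in Lyz1-high and 149919 CPM in Lyz1-low cells at P10. Cebpa, a C/EBP factor of AT2 cells, stood at 145 CPM in Lyz1-high and 150 CPM in Lyz1-low cells at P10, and at 161 CPM and 160 CPM at E18.5. Lyz2 differed by less than 2-fold too, and was lower in Lyz1-high cells, at 13060 CPM in Lyz1-high and 18879 CPM in Lyz1-low cells at P10 (log2 ratio -0.53), and at 6026 CPM and 9206 CPM at E18.5 (log2 ratio -0.61). Besides Gstm1, Cbr3, a carbonyl reductase, differed by more than Lyz2 at E18.5 (log2 ratio -0.65).

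Between Lyz2-high and Lyz2-low AT2-like cells, 5 of 5896 other genes differed by 2-fold at P10 (0.0848%) and 1 of 5555 at E18.5 (0.018%). At 1.5-fold the numbers were 15 at P10 and 12 at E18.5. At P10 the globins Hba-a1 and Hbb-bs were higher in the high cells. The skeletal muscle genes Acta1, Tnnc2 and Mylpf were lower, with 637 Acta1 UMIs in the 504 low cells. How many of these cells carried the muscle UMIs was not counted. At E18.5 the gene was Sprr1a, an epithelial envelope protein, at 56.5 CPM in Lyz2-high and 142 CPM in Lyz2-low cells. Sprr1a, Cbr3 and Gstm1 were among the leading genes of a single AT2-like cluster of 300 cells at E18.5. That cluster had 4021 CPM of Lyz1 and 3285 CPM of Lyz2. The other AT2-like clusters at E18.5 had 7524 and 9956 CPM of Lyz1, and 7251 and 9327 CPM of Lyz2. The part of this cluster in the differences beside Lyz1 and Lyz2 was not tested. Nkx2-1, the lung lineage factor, stood at 234 CPM in Lyz2-high and 247 CPM in Lyz2-low cells at P10.

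Among abundant genes Lyz1 had one of the widest spreads over AT2-like cells in both libraries, as did Lyz2 at E18.5 but not at P10. The spread was taken as the variance beyond counting noise, divided by the squared mean, in cells thinned to 3000 UMIs. For Lyz1 it was 2.73 at P10, the 2nd of 61 genes with a mean of at least 5 UMIs, whose median was 0.0905. Ranks 1 and 3 went to Gm42418, which overlaps ribosomal RNA (2.89), and Lcn2, an iron-chelating defence protein (2.58), and the next gene was at 0.541. For Lyz1 at E18.5 it was 1.55, the 1st of 82 genes with a median of 0.0443. Retnla, a secreted cytokine-like protein, had 1.34 and Lyz2 had 1.29, and the next gene was at 0.317. Lyz2 at P10 had 0.164 and rank 15. Sftpc, by comparison, had 0.0296 at P10 and 0.0900 at E18.5.

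**Figure D4:**
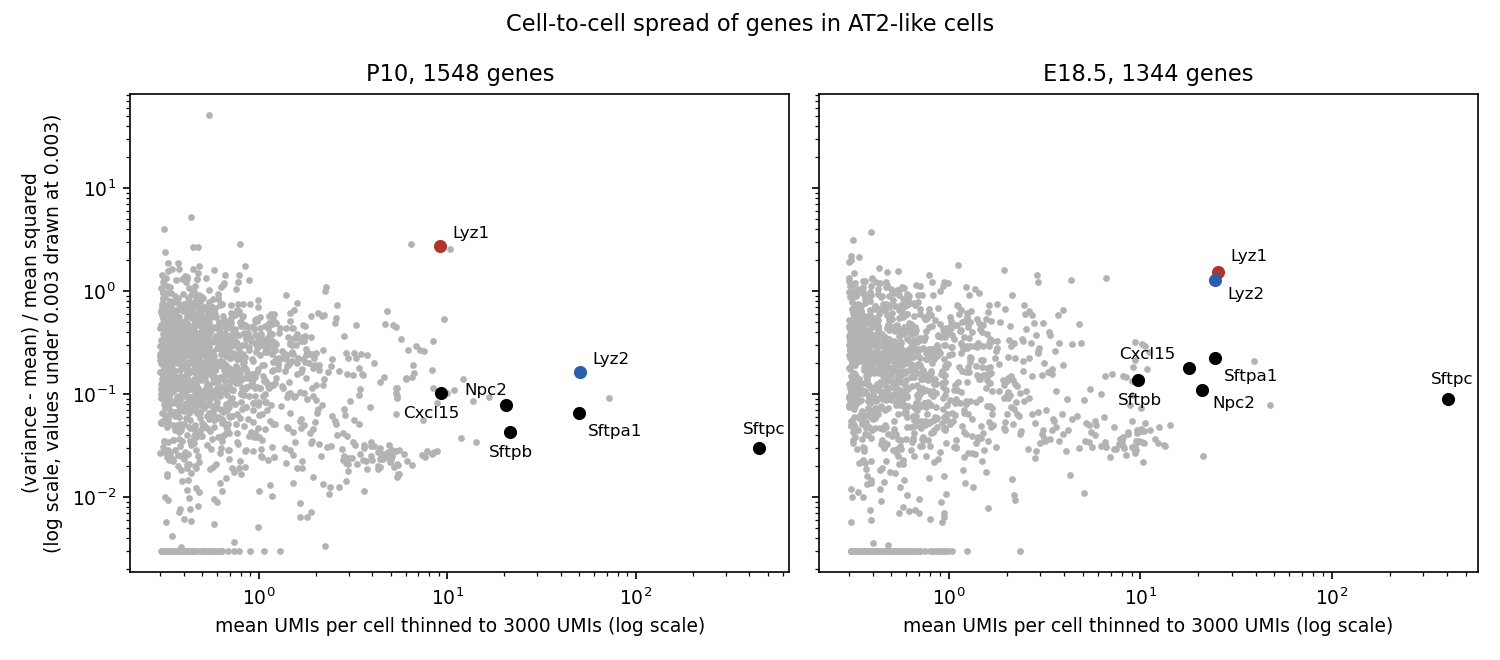
Spread beyond counting noise against mean UMIs (log axes) for genes in AT2-like cells thinned to 3000 UMIs, at P10 and E18.5. Lyz1 lies far above genes of like mean in both libraries (2.73 at P10, 1.55 at E18.5), and Lyz2 does so at E18.5 (1.29) more than at P10 (0.164).

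The low AT2-like cells had lysozyme levels somewhat above those of non-epithelial cells poor in Sftpc. In the 806 non-epithelial, non-myeloid cells at or below their median of Sftpc at P10, the Lyz1 median in low cells was 4.23 per 10000 UMIs and the Lyz2 median 24.0. Only 1 of the 806 had high Lyz1 and 1 had high Lyz2. In the matching 564 cells at E18.5 the medians were 4.12 for Lyz1 and 4.39 for Lyz2, with 0 cells of high Lyz1 (3 cells of 564, taken as the limit that a count of 0 allows, would be 0.532%), and 29 of high Lyz2. The counts of high Lyz2 rest on the unequal limits of the libraries. In the P10 library Lyz2 UMIs were present at a low level in nearly all cells. After thinning to 3000 UMIs, 100% of AT2-like cells and 100% of non-epithelial, non-myeloid cells had a Lyz2 UMI at P10, and 87.6% and 78.4% had a Lyz1 UMI. The cells under 3000 UMIs left out were 176 AT2-like and 224 other cells at P10, and 51 and 199 at E18.5. Without thinning, 98.9% of AT2-like cells and 90.01% of the others had a Lyz1 UMI at P10, and 99.3% and 89.0% at E18.5. After thinning at E18.5, 94.8% of AT2-like and 82.8% of those other cells had a Lyz2 UMI, and 91.6% and 77.4% a Lyz1 UMI. A share of cells with a UMI therefore said little about which cells expressed the genes. The class medians of depth were 10353 UMIs in AT2-like and 5645 UMIs in the other cells at P10, and 10007 and 5651 UMIs at E18.5.

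Over non-epithelial, non-myeloid cells together, both lysozymes stood to AT2-like cells in about the ratio that Sftpc did. Single classes departed from this at E18.5: relative to the level matched by Sftpc, endothelial-like cells had 0.82-fold Lyz1 and 1.36-fold Lyz2, and the 35 B-like cells 0.36-fold Lyz1 and 0.30-fold Lyz2. Non-epithelial, non-myeloid cells had 1293 CPM of Lyz1 at P10 and 1811 CPM at E18.5, 7419 CPM of Lyz2 at P10 and 2285 CPM at E18.5, and 62643 CPM of Sftpc at P10 and 32130 CPM at E18.5. AT2-like cells exceeded them at P10 by 2.39-fold for Lyz1, 2.31-fold for Lyz2 and 2.39-fold for Sftpc, where 3.03% of 9809 genes were higher by 2-fold. At E18.5 the ratios were 4.32 for Lyz1, 3.22 for Lyz2 and 3.86 for Sftpc, where 4.29% of 9347 genes were higher. As means over cells, which give each cell equal weight, the E18.5 ratios were 7.71 for Lyz1 and 6.20 for Lyz2. At P10, 3 of the 8 non-epithelial, non-myeloid clusters (612 of 1611 cells) carried surfactant genes above the level set for a mixture, and without them both ratios were 2.86. At E18.5 0 of the 6 clusters did. That level is scaled between clusters and does not show that a cluster was free of AT2 RNA. At E18.5 the endothelial-like, the pericyte-like and a fibroblast-like cluster had 6 AT2 markers raised. The B-like cluster had 5, the mesothelial-like 3 and the remaining fibroblast-like cluster 1. At P10 the fibroblast-like and B-like clusters above the level had 0 raised, and the T or NK-like cluster above it had 7. Whether free RNA, doublets or AT2 material on cells gave the lysozyme and Sftpc UMIs of these cells was not tested.

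Other epithelial cells differed widely in level. AT1-like cells at E18.5, the flat cells of gas exchange, had 495 CPM of Lyz1 and 502 CPM of Lyz2. The lowest of the 6 non-epithelial, non-myeloid clusters at E18.5 had 895 CPM of Lyz1, and the lowest for Lyz2 had 698 CPM. The level of non-epithelial, non-myeloid cells was thus not the lowest in that library. AT2-like cells exceeded them by 15.8-fold for Lyz1 and 14.6-fold for Lyz2, next to 14.4-fold for Sftpc, and 1.70% and 1.62% of AT1-like cells had high Lyz1 and high Lyz2. Club-like cells, the secretory cells of airways, had 1172 CPM of Lyz1 and 7065 CPM of Lyz2 at P10, and 1263 CPM and 1285 CPM at E18.5. Ciliated-like cells at E18.5 had 1133 CPM of Lyz1 and 1507 CPM of Lyz2. Cells with both AT1 and AT2 markers had high Lyz1 in 23.5% and high Lyz2 in 81.6% at P10, and in 43.5% and 48.9% at E18.5. Those Lyz2 shares rest on the unequal limits of the libraries. The 2259 transitional-like cells at P10 had high Lyz1 in 24.2% and high Lyz2 in 88.4%.

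Macrophage or monocyte-like cells had Lyz2 above the level that went with their Sftpc, and Lyz1 at about that level. The 424 macrophage or monocyte-like cells at P10 had 1386 CPM of Lyz1 and 11191 CPM of Lyz2, and the 1086 at E18.5 had 906 CPM and 4646 CPM. Against non-epithelial, non-myeloid cells Lyz2 was 1.51-fold higher at P10 and 2.03-fold higher at E18.5. There, 7.05% of 10103 genes at P10 and 7.16% of 9570 genes at E18.5 were higher by 2-fold. For Lyz1 the ratio was 1.07 at P10 and 0.50 at E18.5, and for Sftpc 1.20 and 0.471. In each library 14.2% of genes were lower by 2-fold. In the macrophages at or below their median of Sftpc, Lyz2 was high in 68.9% of 212 cells at P10 (median 92.5 per 10000 UMIs) and in 85.8% of 543 cells at E18.5 (median 48.6). The Lyz2 limit was 60 per 10000 UMIs at P10 and 20 at E18.5, so these shares cannot be compared between the libraries. Lyz1 was high in 0 of the 212 cells at P10 (limit 1.42% by the same 3 cells), and in 1 of the 543 at E18.5. Its median in low cells there was 4.89 per 10000 UMIs at P10 and 4.53 at E18.5, close to the background.

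The clusters of this class differed in Lyz2. Scaled by Sftpc from AT2-like cells, the P10 cluster led by Chil3 and Marco, markers of alveolar macrophages, had 2.65-fold the matched Lyz2 level (145 cells). A P10 cluster with Plac8, a monocyte marker, had 1.46-fold, and one with the C1q genes of interstitial macrophages 1.04-fold. The unscaled Lyz2 levels had the reverse order, at 8797 CPM in the Chil3, 11323 CPM in the Plac8 and 12442 CPM in the C1q cluster. The C1q cluster also had 5 AT2 markers raised, with Sftpc at 104876 CPM, against 29071 CPM in the Chil3 cluster. At E18.5 the main cluster of 715 cells had 5168 CPM of Lyz2, against 472 CPM matched by Sftpc, and thus 10.9-fold. That cluster also had 7 AT1 markers raised, whose part in its lysozyme levels was not tested. A dividing cluster with Marco had 8.28-fold, and the remaining ones 2.55-fold, with 6 AT2 markers raised, and 1.64-fold, with 3 raised. The part of such AT2 RNA in these ratios was not tested. For Lyz1 the same ratios ran from 0.75 to 1.18 at P10 and from 0.71 to 1.13 at E18.5. Neutrophil-like cells had 1.09-fold the matched Lyz2 level at P10 and 2.87-fold at E18.5, and dendritic-like cells at P10 had 1.00-fold. The neutrophil-like cells had Sftpc at 60472 CPM at P10, and 6 AT2 and 7 AT1 markers raised at E18.5. The dendritic-like cells had Sftpc at 86036 CPM, with 8 macrophage or monocyte and 4 dendritic markers raised. The part of such RNA in their Lyz2 ratios was not tested either.

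The Lyz1 share of myeloid-like cells moved with their Sftpc level. Over macrophages, neutrophils and dendritic cells together it was 12.3% at P10 and 18.6% at E18.5. In the myeloid-like cells at or below their median of Sftpc it was 7.45% at P10 and 8.86% at E18.5. Over 4 equal bins of Sftpc, the share in macrophages was 5.56% in the lowest and 12.7% in the highest at P10, and 8.26% in the lowest and 28.1% in the highest at E18.5. The E18.5 value for all myeloid-like cells was 28.6% with a coarser clustering, 28.4% with the lysozymes left among the clustering genes, and between 8.86% and 28.6% over all alternatives.

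Of 10 genes of the lysozyme family, 2 reached 10 CPM in AT2-like cells, Lyz1 and Lyz2. Of 18 secreted antimicrobial genes 11 were measured, of which 10 were higher at P10 by 2-fold and 1 was lower, against 13.6% higher and 10.5% lower over the 8421 genes (median log2 ratio 1.58, against 0.15). Of the genes called higher, S100a8, S100a9 and Chil3 lay at or below the non-epithelial, non-myeloid level at P10: AT2-like cells had 38.0, 47.0 and 16.8 CPM, and those other cells 63.3, 80.4 and 18.6 CPM. Pglyrp1, called lower, had 13.5 CPM in AT2-like and 21.9 CPM in those other cells at P10. Lcn2 stood at 3689 CPM at P10 and 552 CPM at E18.5. Slpi, a protease inhibitor (log2 ratio 1.94), Sftpd, the lung collectin (1.58), and Wfdc2 (1.47) were higher too, and Pglyrp1, which binds peptidoglycan, was lower (-1.75). Of 11 lamellar body and surfactant genes, which share Sftpa1 and Sftpd with the antimicrobial list, 5 were higher and 0 lower, beside the same 13.6% and 10.5% over all genes, with a median of 0.48.

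Of 11 C/EBP, PU.1 and lung factor genes 9 were measured. Etv5, a factor downstream of FGF signals, was higher at P10 (log2 ratio 1.32), Cebpb (-1.38) and Cebpd (-1.19) were lower, and the median was -0.12. Cebpb and Cebpd were below the non-epithelial, non-myeloid level in both libraries, Cebpb with 42.9 CPM in AT2-like and 75.2 CPM in those other cells at P10, and 112 CPM in AT2-like and 425 CPM in other cells at E18.5. Cebpd had 175 CPM in AT2-like and 230 CPM in other cells at P10, and 400.5 CPM in AT2-like and 490 CPM in other cells at E18.5. The part of the background in these differences was not tested. Spi1, which encodes PU.1, the myeloid factor, was at 3.37 CPM at P10 and 5.62 CPM at E18.5 in AT2-like cells. Of the 10 protein-coding genes around the pair, 5 on each side, 7 were measured. Of these 1 was higher, Cpm, a carboxypeptidase of the cell surface, at 864 CPM at P10 and 307 CPM at E18.5, and the median log2 ratio was 0.01. A count of 1 in 7 is close to the 13.6% of all genes that were higher.

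Over clusters of at least 50 cells (22 at P10, 23 at E18.5), the genes whose levels were most like Lyz1 by Pearson correlation of log levels were Cxcl15 (0.962), Elovl1 (0.960) and Npc2 (0.956) at P10. At E18.5 they were Sftpc (0.987), Sftpa1 (0.986) and Bex2 (0.984). For Lyz2 they were Npc2 (0.936), Scp2 (0.925) and Stard3nl (0.920) at P10, and Ctsc (0.873), Ifi30 (0.845) and Sgms1 (0.831) at E18.5. Clusters of 1 library share its depth and free RNA. Sftpc was among the 5 genes most like Lyz1 in both libraries and among the 5 most like Lyz2 in neither.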

How the data were processed

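Single lung cells sorted for tdTomato at P10 and E18.5 gave 1 droplet library (10x Genomics 3′ chemistry) per time point. The authors deposited unscaled UMI counts, whole numbers for each gene in each cell, which Cell Ranger 7.0.1 wrote per the file headers. Notes of the submitters on processing also list mm10 and Seurat 4.0.0, with no role. Whether reads in introns were counted, and how a read matching both genes was treated, is not stated in these sources.

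From these counts, cells were filtered as stated, and each library was clustered on its own in scanpy 1.11.5 (Python 3.11.15): counts per 10000, 2000 variable genes without Lyz1 and Lyz2, 30 principal components, 15 neighbours, Leiden resolution 1. A cluster took a class name only where at least 3 markers of the class were detected and raised. Classes other than alveolar and transitional ones also needed 35% of their markers. AT2-like and AT1-like clusters needed a median marker level of at least 0.5, scaled between a low and the highest cluster. With both levels at 0.25 or more a cluster was named mixed. Leading genes of another class could change or remove a name. The details of this naming rule were set after the data were seen. Doublets were kept: Scrublet called 1 cell at P10 and 2 at E18.5, so the caller did not work. The total depth was 171205348 UMIs at P10 and 137837590 UMIs at E18.5. CPM values have exact Poisson intervals, ratios exact conditional binomial intervals and shares exact (Clopper-Pearson) binomial intervals, all at 95%; for a count of 0 the limit is 3 counts of the total. No test across libraries was possible with 1 library per time point. The interval script was checked on simulated counts. Genes were named as Lyz1, Lyz2, fixed lists, the 5 protein-coding genes on each side, and the genes most like the pair over clusters (log2(CPM + 10)). The genes beside high and low Lyz1 or Lyz2 and the ranks of spread were chosen after their values were seen. The lysosome gene list is not reported here. The members and the lists were chosen with earlier results of these data known. The alternatives were stricter cell filters, other resolutions, doublet removal, thinning, other totals, background subtraction and a per-cell Sftpc gate. Coordinates and transcripts came from GENCODE vM21 (GRCm38), promoters from RefSeq (GRCm38.p6).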

Additional observations from a re-analysis of the deposited data

How the results depend on the processing

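No paired analysis was possible because each time point has 1 library. No direction reversed under any alternative that gave a value, and the cause of each shift was not tested. The log2 ratio of P10 over E18.5 in AT2-like cells (Lyz1 -1.34, Lyz2 1.22) was -1.63 and 0.91 with the stricter cell filter, -1.51 and 1.04 at resolution 0.5, and -1.32 and 1.24 at resolution 2. It was -1.52 and 1.06 with both genes left among the clustering genes, -1.41 and 1.14 without the 5% of cells with the highest doublet scores, and -1.47 and 1.06 both as a mean over cells and after thinning. It was -1.45 and 1.10 without mitochondrial, ribosomal protein and haemoglobin genes in the total, -1.74 and 0.93 with the background subtracted, and -1.39 and 1.14 with the per-cell Sftpc gate. The Lyz1 share of AT2-like cells at P10 (15.3%) was 15.2% at resolution 2 and without high doublet scores, and 15.6% with the background subtracted and with the gate. At E18.5 (51.5%) it was 51.3% with the stricter filter and without high doublet scores, 51.4% at resolution 0.5, 51.8% with both genes among the clustering genes, 50.9% as a mean over cells, 51.0% after thinning and 54.2% with the background subtracted. The Lyz1 share of myeloid-like cells at P10 (12.3%) was 11.8% without high doublet scores, 11.6% as a mean over cells, 11.4% after thinning and 5.08% with the background subtracted. At E18.5 (18.6%) it was 28.6% at resolution 0.5, 28.4% with both genes among the clustering genes, 25.8% without high doublet scores, 13.04% as a mean over cells and 13.1% after thinning. Background subtraction gave no value there, since Lyz1 lay below the background. Alternatives chosen after seeing the data gave 11.02% at P10 and 16.3% at E18.5 for macrophage or monocyte-like cells alone, and 7.45% at P10 and 8.86% at E18.5 for myeloid-like cells at or below their median of Sftpc. With the limits between low and high cells multiplied by 0.75 and by 1.5, also chosen after seeing the data, Lyz1 was high in 29.2% and 24.7% of AT2-like cells at P10, and in 55.7% and 50.4% at E18.5. Lyz2 was then high in 96.0% and 87.1% at P10, and in 64.8% and 57.6% at E18.5. With the limit of the other library, Lyz2 was high in 99.6% at P10 and in 46.05% at E18.5. Measured at 50 CPM in place of 10 CPM, 562 genes were higher and 444 lower at P10 of 3495. Of the antimicrobial genes 7 were then higher and 0 lower. At P10 neither lysozyme was among the 2000 variable genes, so leaving them in changed nothing there. Of the 5 genes most like each lysozyme, at least 4 were the same with log2(CPM + 1). Depth limits the low levels: a Lyz1 level near 5 per 10000 UMIs is about 5 UMIs in a cell of median depth.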
